A study of Homo sapiens with 6 samples.

Results

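Changes common to 2 siRNAs were examined in Jurkat, a line derived from a human T-cell leukaemia, as the mean log ratio over all 6 arrays of the series taken as 1 group. Each 2-colour array compared RNA of cells transfected with p65 or RPS3 siRNA, in Cy5, with RNA of cells transfected with nonspecific siRNA, in Cy3. Cells of both channels had been stimulated with anti-CD3/CD28, antibodies to the T-cell receptor complex and its co-receptor, at a labelled dose of 1 ug for 1, 3 or 6 h. Each siRNA had 1 array at each time, so 3 arrays per siRNA. The antibodies were thus present in every sample, controls included, and no unstimulated sample was analysed here. Knockdown came from transfected siRNA in 1 cell line, and the labels name no separate cultures. P-values therefore measure the spread between these arrays. That spread includes differences of siRNA and time, and the rest of it may be technical.

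NF-kB is a family of dimeric transcription factors, and p65, encoded by RELA, is its main activating subunit. In resting T cells the dimers are held in the cytoplasm by IkB proteins. Receptor stimulation leads to loss of IkB and entry of p65 into the nucleus, where it switches on immune genes and also its own inhibitors, among them IkB alpha (NFKBIA) and A20 (TNFAIP3). RPS3 is a protein of the small ribosomal subunit, named in the title of the series as a part of p65 complexes.

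Of 15246 probes, 10721 had a value on all 6 arrays and were tested one by one. They comprised 7386 probes of 3854 named genes and 3335 probes with no gene name here. The other 4525 probes (29.7%) were blank on at least 1 array. Blanks made up 5.40% to 15.1% of an array, and the standard deviation of the ratios ran from 0.26 to 0.51. Ratios are given on a log2 scale as siRNA over nonspecific siRNA, which is the likely direction and the likely log base, since the deposited values state neither. A value below 0 then means less RNA with the targeting siRNA. Log ratios carry no level, so the identity of the cells could not be checked from marker abundance. Of 15 T-cell markers, 12 had a tested probe, and of 51 markers of other lineages, 25 did. Among the 30 T-cell marker probes 0 were called, and among the 46 probes of other lineages 0 were called. The corresponding medians of the mean log2 ratio were 0.12 and 0.04. At an unadjusted p under 0.05, 6 of the 30 (20%) and 11 of the 46 (23.9%) were higher and 0 lower, and 7 of the 11 were probes of PRSS1. Over all tested probes the shares were 6.06% higher and 6.48% lower. The part of the marker probes in any result was not tested.

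The mean over the 6 arrays differed from 0 for 21 probes, which is 0.196% of those tested (limma, Benjamini-Hochberg adjusted p under 0.05, the rule for "called"). Of these, 20 were lower with the siRNAs (0.187%) and 1 was higher. All 21 had 1 sign on all 6 arrays, and the sizes of their means ran from 0.65 to 1.07. Without the p65 siRNA array at 3 h 13 probes were called, without the p65 siRNA array at 6 h 12, and without the RPS3 siRNA array at 1 h 13. At an unadjusted p under 0.05 there were 1345 probes (12.5%), of which 695 were lower (6.48%) and 650 higher (6.06%), where 536 would be expected if no probe differed. Many more probes reached the unadjusted than the adjusted level. The called probes were almost all lower, and the larger set was close to balanced.

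**Figure D1:**
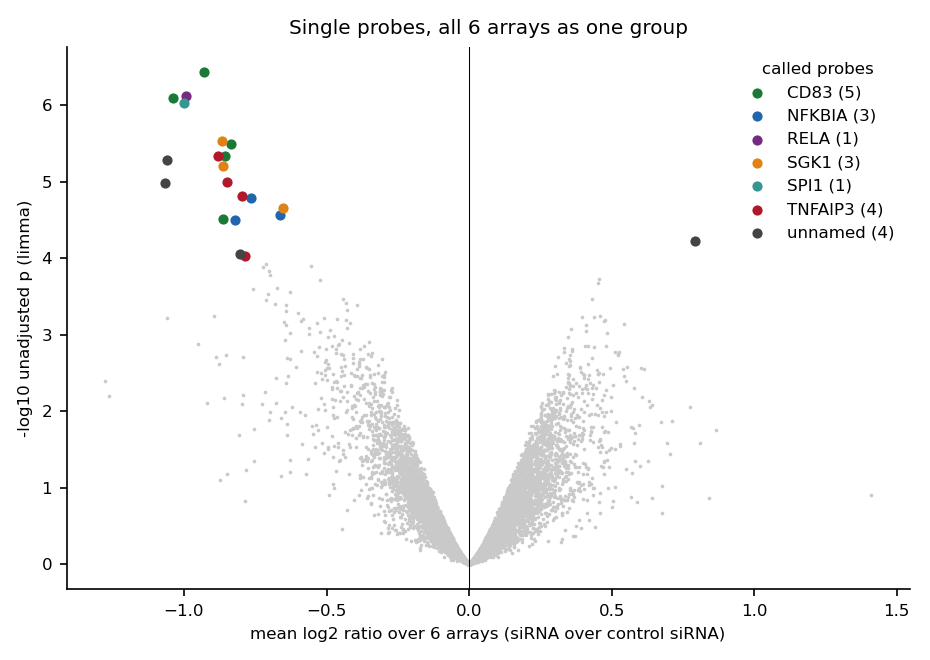
Each point is 1 of the 10721 tested probes, with the mean log2 ratio over 6 arrays (siRNA over nonspecific siRNA) on the horizontal axis and the size of the p-value on a -log10 scale on the vertical axis. The 20 called lower probes and the single called higher probe are the coloured and dark points at the top, with means of 0.65 to 1.07 in size.

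The 20 lower probes were below 0 on every array. Their median was -0.97, -0.92 and -0.85 on the p65 siRNA arrays at 1, 3 and 6 h, and -1.06, -0.58 and -0.78 on the RPS3 siRNA arrays at the same times. The array with the smallest shift, RPS3 siRNA at 3 h, was also the array with the smallest standard deviation of all ratios.

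The dye layout and the control RNA bear on every value here. All 6 arrays carried the nonspecific siRNA RNA in Cy3 and none had the dyes exchanged, so a bias of a probe toward one dye and a change common to both siRNAs cannot be told apart. The labels also do not say whether the p65 and RPS3 siRNA arrays of one time were hybridised with the same control RNA. If they were, a low or high level in that control moves both arrays together, and 6 arrays hold only 3 independent comparisons. When the 2 arrays of each time were averaged first and the 3 averages tested, 0 of 10721 probes were called by limma, 727 had an unadjusted p under 0.05 and the lowest adjusted p was 0.201. In that fit the unadjusted p of the 21 probes called above ran from 3.69e-05 to 0.00177.

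Agreement between probes of 1 gene gave a further description. Probes of a gene read the same RNA and are not replicates of a condition. Of 1917 genes with at least 2 tested probes, 4 (0.209%) had 2 or more called probes in 1 direction, all lower. They were CD83, TNFAIP3, NFKBIA and SGK1, and together they held 15 of the 21 called probes. No gene had called probes of opposite sign (0 genes). NFKBIA and TNFAIP3 are the inhibitors named above. CD83 is a surface protein of activated lymphocytes and dendritic cells and a known NF-kB target. SGK1 is a serine/threonine kinase induced rapidly by serum, glucocorticoids and other signals.

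The sequence just before the transcription start is shown for the 3 of these genes in which a kappa-B consensus, the motif read by NF-kB dimers, was found in the 150 bases before a start. Sequences are from RefSeq (GRCh38.p14), written 5′ to 3′ on the strand of the gene, with matches on either strand in capitals and overlapping matches joined. CD83 is chr6:14117622-14117771 (+), NFKBIA is chr14:35404750-35404899 (-) and TNFAIP3 is chr6:137867109-137867258 (+).
CD83: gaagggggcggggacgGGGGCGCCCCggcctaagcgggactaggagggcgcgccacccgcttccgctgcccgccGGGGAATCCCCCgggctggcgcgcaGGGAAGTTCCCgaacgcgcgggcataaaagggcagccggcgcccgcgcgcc
NFKBIA: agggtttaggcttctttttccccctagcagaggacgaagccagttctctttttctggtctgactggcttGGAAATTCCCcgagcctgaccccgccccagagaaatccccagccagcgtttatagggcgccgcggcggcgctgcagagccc
TNFAIP3: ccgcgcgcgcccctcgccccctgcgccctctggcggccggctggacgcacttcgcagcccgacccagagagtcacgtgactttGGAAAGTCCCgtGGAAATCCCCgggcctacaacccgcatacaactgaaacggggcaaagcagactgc
The match in NFKBIA begins at base -81 from the start, and those in TNFAIP3 begin at -67 and -55. CD83 has stretches beginning at -134, -76 and -51. A second CD83 start and 3 SGK1 starts held no match in their windows. Of all 35116 promoter windows of this length 6.19% held a match, against 3 of the 7 windows of these 4 genes, 27.7% of the 65 windows of the NF-kB target list and 5.97% of the 67 windows of the G2 and M phase list. CD83, NFKBIA and TNFAIP3 are also members of the NF-kB target list, so its share and that of the 4 genes are not independent. A match describes letters only, and binding was not measured here.

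CD83 fell, by 0.90 ± 0.15 over its 5 called probes (log2, SD, n = 6 arrays), a level lower by 1.87-fold. Its average was -0.87, -0.87 and -0.82 with p65 siRNA at 1, 3 and 6 h and -1.19, -0.76 and -0.91 with RPS3 siRNA. The RPS3 siRNA array at 1 h was the lowest, and the arrays of the 2 siRNAs overlapped. The most even probe, 19239_1, read -0.88, -0.83 and -0.84 with p65 siRNA and -1.09, -0.95 and -0.98 with RPS3 siRNA (adjusted p = 0.0025). Probe 17066_1 lay lowest at -1.04, with the same adjusted p of 0.0025. Among the other 3 tested probes, 35174_1 had a mean of -0.71 and just missed the threshold (adjusted p = 0.0571), 28216_1 had -0.48, and 30249_1 had -0.02. A further 4 CD83 probes were blank on some array and were not tested. Over the arrays with a value, 25052_1 had a mean of -0.04, 29824_1 -0.17, 29969_1 -0.09 and 31524_1 0.59. The averages given for CD83, TNFAIP3, NFKBIA and SGK1 cover their called probes only. Over all tested probes the means were -0.72 for CD83, -0.84 for TNFAIP3, -0.67 for NFKBIA and -0.70 for SGK1.

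TNFAIP3 fell by 0.83 ± 0.25 over 4 called probes (log2, SD, n = 6 arrays), or 1.78-fold. Probe 28987_1 read -1.04, -1.21 and -0.91 with p65 siRNA and -0.81, -0.58 and -0.73 with RPS3 siRNA (adjusted p = 0.0061). All 3 p65 siRNA arrays of this probe were lower than all 3 RPS3 siRNA arrays. The mean of the 4 probes was -1.01 ± 0.17 with p65 siRNA and -0.64 ± 0.16 with RPS3 siRNA (SD, n = 3 arrays each). The difference between the siRNAs passed for none of the 4 (lowest adjusted p = 0.9996). Its lowest unadjusted p was 0.0376, for probe 16398_1, where RPS3 siRNA lay 0.41 higher. The remaining 2 probes were low at 1 and 3 h only. Probe 35299_1 read -1.64, -1.63 and 0.07 with p65 siRNA and -1.41, -0.69 and 0.15 with RPS3 siRNA, and was not called (adjusted p = 0.240). Probe 34761_1 had the same course, with -0.27 and -0.14 at 6 h (adjusted p = 0.183).

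NFKBIA fell by 0.75 ± 0.21 over 3 called probes (log2, SD, n = 6 arrays), or 1.68-fold. Probe 28424_1 read -1.07, -0.68 and -0.86 with p65 siRNA and -0.92, -0.48 and -0.57 with RPS3 siRNA (adjusted p = 0.0124). The 2 siRNAs overlapped, with both 1 h arrays lowest of their siRNA. One of the 2 probes that were not called, 34886_1, read -1.30, -1.06 and -0.07 with p65 siRNA and -0.98, -0.73 and 0.08 with RPS3 siRNA. The gene no longer had 2 called probes when the p65 siRNA array at 1, 3 or 6 h or the RPS3 siRNA array at 1 h was left out. Its mean was between -0.77 and -0.69 in these 4 fits.

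SGK1 fell by 0.79 ± 0.19 over 3 called probes (log2, SD, n = 6 arrays), or 1.74-fold. Probe 34708_1 read -0.99, -0.67 and -0.89 with p65 siRNA and -1.04, -0.59 and -1.02 with RPS3 siRNA (adjusted p = 0.0057). In both siRNAs the 3 h array was the nearest to 0, unlike TNFAIP3 probes 34761_1 and 35299_1, which were nearest to 0 at 6 h. The fourth tested probe, 26401_1, had a mean of -0.40 and was above 0 on the p65 siRNA array at 3 h.

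**Figure D2:**
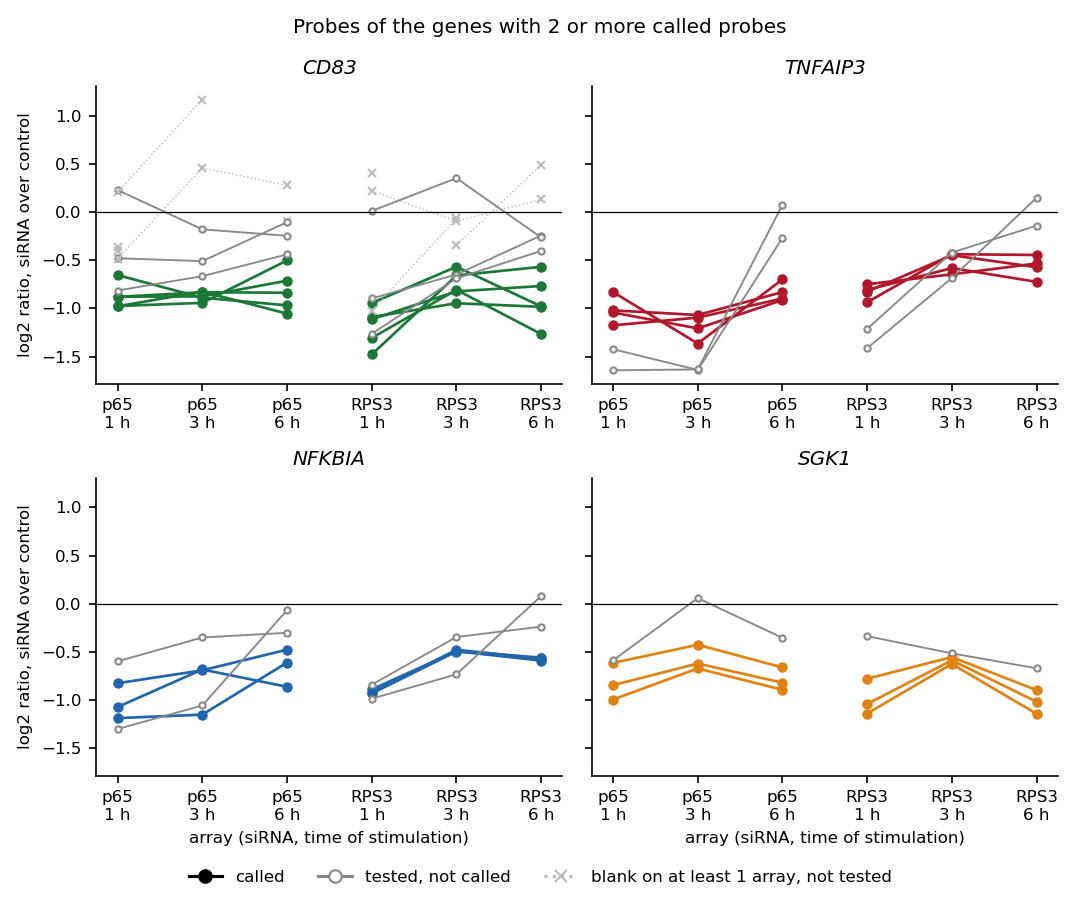
Plotted for the probes of CD83, TNFAIP3, NFKBIA and SGK1 are log2 ratios (siRNA over control) against the 6 arrays, ordered by siRNA and time, with 1 line per probe. Filled coloured points are called probes, open grey points were tested and not called, and crosses were blank on at least 1 array. Every called probe lies below 0 on all 6 arrays, and TNFAIP3 probes 34761_1 and 35299_1 stand near 0 at 6 h.

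By the experiment IDs of the labels there were 2 runs of neighbouring numbers, called series here, one with the p65 siRNA array at 1 h and the RPS3 siRNA array at 3 h, the other with the remaining 4 arrays. The means within the first and the second series were -0.82 and -0.95 for CD83, -0.76 and -0.74 for NFKBIA, -0.70 and -0.84 for SGK1, and -0.77 and -0.86 for TNFAIP3. Within the second series alone limma called 0 probes (1295 at an unadjusted p under 0.05), and within the first 43. With the series as a covariate, 10 probes and the 2 genes CD83 and SGK1 were called.

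**Figure D3:**
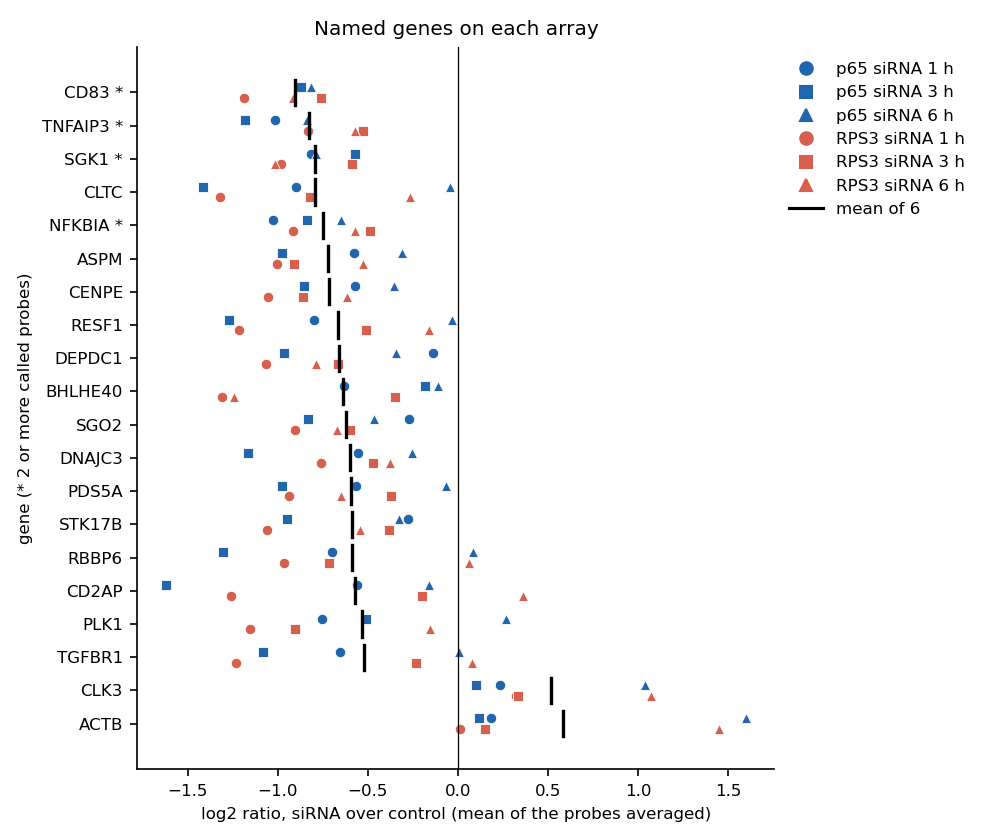
Each point is 1 array, coloured by siRNA and marked by time, and shows the log2 ratio of a gene averaged over the probes that named it. Black bars are means of the 6 arrays. The 4 genes with an asterisk are called and lie below 0 on all 6 arrays, with means of -0.90 to -0.75, and the other 16 did not pass.

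The siRNA targets came out differently from each other. RELA had 2 tested probes. Probe 15848_1 fell, reading -0.71, -0.99 and -1.05 with p65 siRNA and -1.28, -0.99 and -0.94 with RPS3 siRNA, for a mean of -0.99 ± 0.19 (SD over 6 arrays, adjusted p = 0.0025). The reading was low with both siRNAs, and their arrays overlapped. Probe 28407_1 read -0.12, 0.06 and -0.13 with p65 siRNA and 0.50, -0.40 and -0.14 with RPS3 siRNA (adjusted p = 0.914), so the probes of RELA disagreed. RPS3 had 1 tested probe, which read 0.11, 0.01 and 1.11 with p65 siRNA and -2.50, -2.53 and -1.44 with RPS3 siRNA. It was low only in its own knockdown, and its mean over both siRNAs was not called (adjusted p = 0.446).

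SPI1, which encodes the myeloid and B-cell transcription factor PU.1, had 1 called probe, 24559_1. It read -0.99, -0.79 and -0.96 with p65 siRNA and -1.19, -0.80 and -1.27 with RPS3 siRNA, with a mean of -0.998 (adjusted p = 0.0025). The other 4 tested SPI1 probes had means between -0.23 and -0.01 (adjusted p from 0.415 to 0.987). For SPI1 as for RELA, therefore, 1 probe stood apart from the others of the same symbol.

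The called probes without a gene name were 4. The lowest called mean of all belonged to one of them, 19233_1, which read -1.15, -1.38 and -1.06 with p65 siRNA and -1.52, -0.53 and -0.77 with RPS3 siRNA (mean -1.07, adjusted p = 0.0092). Probe 30589_1 had a mean of -1.06 and probe 15916_1 one of -0.80. The only called higher probe was also unnamed, 19355_1, at 0.57, 0.59 and 1.05 with p65 siRNA and 0.78, 0.48 and 1.31 with RPS3 siRNA (mean 0.79, adjusted p = 0.0338). It was highest on the 6 h array of each siRNA.

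Just inside the threshold stood TNFAIP3 probe 19267_1 and unnamed probe 15916_1 (adjusted p = 0.0473 each). Just outside stood the CD83 probe 35174_1 (0.0571), unnamed probe 30797_1 and a probe of CENPE (both 0.0585), unnamed probe 35190_1 (0.0628), a probe of SGO2 (0.0684), and probes of TMEM203 and ASPM (both 0.0731). The means of these were -0.71 for CD83, -0.55 for 30797_1, -0.72 for CENPE, -0.70 for 35190_1, -0.70 for SGO2, 0.46 for TMEM203 and -0.52 for ASPM. CENPE, SGO2 and ASPM act in chromosome segregation and the mitotic spindle.

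The fit of RPS3 siRNA minus p65 siRNA found where the common mean may hide a difference. Limma called 0 of 10721 probes (0%), with 287 at an unadjusted p under 0.05 and a lowest adjusted p of 0.5545. That lowest value was the RPS3 probe itself, with a difference of -2.57 between the siRNAs. For the 21 probes called in the common mean, the differences ran from -0.22 to 0.41, and 1 of the 21 had an unadjusted p under 0.05. CD83 probe 19239_1, for example, differed by -0.16 with a standard error of 0.16. These values do not show that the siRNAs acted alike, since RPS3 itself did not pass in this fit. In the fit with time as a block, the RPS3 probe and 1 unnamed probe were called.

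At the unadjusted level, 143 of the 1917 genes with 2 or more tested probes (7.46%) had at least 2 probes at an unadjusted p under 0.05 in 1 direction, 95 lower and 48 higher, the 4 called genes included. In 64 of the 143 this held for every tested probe. A further 6 genes had such probes in both directions: BCL6, GRAMD1A, IRAG2, MAF, RAB3GAP2 and SDC4. Apart from the 4 called genes, the 16 of the 143 with the largest means are given next as values. They did not pass the adjusted test, 14 of them being below 0 and 2 above.

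Several of these 16 genes act in cell division. CENPE, the kinesin that carries chromosomes at the kinetochore, averaged -0.72 ± 0.25 over all 6 of its tested probes (SD, n = 6 arrays). Its arrays read -0.57, -0.86 and -0.36 with p65 siRNA and -1.05, -0.86 and -0.61 with RPS3 siRNA. ASPM, a spindle-pole protein, averaged -0.72 ± 0.29 over 10 of its 11 probes and was below 0 on every array, from -1.01 to -0.31. DEPDC1 averaged -0.66 ± 0.36 over both probes, and SGO2, which protects centromeric cohesin, -0.62 ± 0.23 over 3 of 4. The means with p65 siRNA and with RPS3 siRNA were -0.59 and -0.84 for CENPE, -0.62 and -0.81 for ASPM, -0.48 and -0.84 for DEPDC1, and -0.52 and -0.72 for SGO2. PLK1, a kinase that drives mitotic entry, had an average of -0.53 ± 0.52, at -0.75, -0.51 and 0.27 with p65 siRNA and -1.15, -0.90 and -0.16 with RPS3 siRNA. In PLK1 the 6 h arrays stood above the earlier ones.

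The averages of the 16 genes cover only the probes at an unadjusted p under 0.05, so probes near 0 were left out where a gene had others. Among the other genes below 0, CLTC (clathrin heavy chain) averaged -0.79 ± 0.55 over 2 of 4 probes, RESF1 -0.67 ± 0.52, BHLHE40, a transcription factor of activated T cells, -0.64 ± 0.53 (-0.31 with p65 siRNA and -0.97 with RPS3 siRNA), and DNAJC3, a chaperone cofactor of the endoplasmic reticulum, -0.60 ± 0.33. PDS5A, a cohesin regulator, averaged -0.60 ± 0.35 over 2 of 4 probes, STK17B, a kinase that restrains T-cell receptor signalling, -0.59 ± 0.33 over 2 of 3, RBBP6 -0.59 ± 0.56, CD2AP, an adaptor of the CD2 receptor, -0.57 ± 0.74, and TGFBR1, a receptor for TGF-beta, -0.52 ± 0.56. Several of these spreads were as wide as the mean. The 2 genes above 0 were ACTB (beta-actin), at 0.58 ± 0.73 over 3 of 9 probes, and CLK3, a kinase of splicing factors, at 0.52 ± 0.43 over 2 of 3. With all probes of a gene averaged, CLTC came to -0.37, PDS5A to -0.39, STK17B to -0.35, ACTB to 0.33 and CLK3 to 0.29. Without the p65 siRNA array at 3 h CD2AP averaged -0.36, and without the p65 siRNA array at 6 h ACTB averaged 0.38.

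Several of the wide spreads went with a difference between times. CLTC averaged -1.11 on the 4 arrays at 1 and 3 h and -0.16 on the 2 at 6 h. RBBP6 went from -0.92 to 0.07 in the same comparison, CD2AP from -0.91 to 0.10, TGFBR1 from -0.80 to 0.04, RESF1 from -0.95 to -0.10 and PLK1 from -0.83 to 0.06. ACTB and CLK3 were high at 6 h, with 0.12 and 0.25 before and 1.52 and 1.05 at that time. The ACTB averages cover 3 of its 9 tested probes, and without both 6 h arrays 1 ACTB probe was called lower. The probes of the called genes were selected for a low spread over all 6 arrays, so their values by time are a description only. CD83 averaged -0.92 on the earlier arrays and -0.86 at 6 h, NFKBIA -0.82 and -0.61, TNFAIP3 -0.89 and -0.70, and SGK1 -0.74 and -0.90. The difference between times was not tested here. The 6 h arrays also had the most blank cells, 14.8% and 15.1%, against 5.40% to 10.1% on the others.

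The gene lists were read as counts of probes. They were written with earlier results of these data known, so the counts are a description only. Over all probes tested, 0.187% were called lower, and 6.48% were lower and 6.06% higher at an unadjusted p. In the NF-kB and IkB family, 8 of 34 probes were called lower and 0 higher. They belong to 3 of the 12 tested genes, NFKBIA, RELA and TNFAIP3. RELA is itself the target of the p65 siRNA, and NFKBIA and TNFAIP3 were already named from the same calls. At an unadjusted p, 18 (52.9%) were lower and 0 higher, and 28 of 34 means were below 0 (median -0.25, against 0.0069 over all probes). Among the members not called, the IkB family member BCL3 had a mean of -0.45, the subunits NFKB1 -0.39, NFKB2 -0.22, REL -0.13 and RELB -0.11, and the inhibitor NFKBIE -0.21. With p65 siRNA and with RPS3 siRNA the means were -0.55 and -0.23 for NFKB1 and -0.29 and -0.16 for NFKB2. They were -0.23 and -0.03 for REL, -0.28 and 0.05 for RELB, -0.32 and -0.57 for BCL3, and -0.23 and -0.19 for NFKBIE. The kinases of the IkB kinase family and their scaffold lay near 0, with IKBKE at 0.01, CHUK at 0.01 and IKBKG at 0.03.

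NF-kB target genes were represented by 117 probes of 41 genes, some of them also in the family list. Of these, 13 probes were called lower and 0 higher, from 4 of the 41 genes, CD83, NFKBIA, SPI1 and TNFAIP3. SPI1 entered through 1 of its 5 tested probes. CD83, NFKBIA and TNFAIP3 were already named from the same calls. At an unadjusted p, 35 (29.9%) were lower and 3 (2.56%) higher, and the median was -0.15. FAS, the death receptor, had all 4 probes at an unadjusted p, with a mean of -0.43, and IRF1, an interferon pathway transcription factor, read -0.53 on its 1 probe. Neither passed. CXCL10 and MYC, also in the list, had means of 0.20 and 0.23 and were not called. Without the 6 h arrays, 23 probes of the list were called lower, against 237 of all 10721.

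Immediate-early activation genes, 110 probes, had 3 called, all of SGK1. At an unadjusted p, 25 (22.7%) were lower and 1 (0.909%) higher. BTG1, an antiproliferative factor, averaged -0.31 with 5 of 6 probes at that level, and MCL1, an antiapoptotic BCL2 relative, -0.26 with 4 of 5. IER5 and DUSP5 had means of -0.43 and -0.33. With p65 siRNA and with RPS3 siRNA the means were -0.21 and -0.41 for BTG1 and -0.15 and -0.36 for MCL1. They were -0.47 and -0.40 for IER5 and -0.13 and -0.53 for DUSP5. The list median was -0.05, against 0.0069 over all probes. Other members lay near or above 0, with EGR1 at -0.03, JUN -0.06, FOSB 0.02, DUSP1 0.03, ATF3 -0.04 and MYC 0.23.

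For G2 and M phase, 0 of 107 probes were called by limma at the adjusted threshold, yet 49 (45.8%) were lower at an unadjusted p and 0 higher. Over all probes those shares were 6.48% and 6.06%. Of the 107 means, 99 were below 0, with a median of -0.24. The shift of the list was unequal between the siRNAs: the median of the siRNA means was -0.07 for p65 siRNA and -0.44 for RPS3 siRNA. By array the medians were 0.07, -0.21 and -0.12 with p65 siRNA at 1, 3 and 6 h and -0.52, -0.35 and -0.40 with RPS3 siRNA. The difference between the siRNAs was not tested for the list. In 11 genes of the list 2 or more probes were lower at that level. CENPF averaged -0.23 ± 0.25 with p65 siRNA and -0.59 ± 0.21 with RPS3 siRNA (SD, n = 3 arrays each), KIF14 -0.23 ± 0.26 and -0.76 ± 0.22, and CCNB1 (cyclin B1) -0.03 ± 0.30 and -0.70 ± 0.32. The lower means of these genes thus came mainly from the RPS3 siRNA arrays. Without both 6 h arrays, where 237 of all 10721 probes were called lower, 20 probes of 7 genes of the list were called lower, namely ASPM, BIRC5, CENPE, CENPF, DEPDC1, MKI67 and PLK1. The S phase list had 3 of 67 probes lower and 1 higher at an unadjusted p.

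Promoters of G2 and M genes often carry CCAAT boxes, bound by NF-Y, and the CHR element TTTGAA. The 150 bases before the start are shown for the 3 named genes in which both were found on either strand, with matches in capitals (RefSeq, GRCh38.p14). The windows are chr1:197146670-197146819 (-) for ASPM, chr1:68497083-68497232 (-) for DEPDC1 and chr16:23678739-23678888 (+) for PLK1.
ASPM: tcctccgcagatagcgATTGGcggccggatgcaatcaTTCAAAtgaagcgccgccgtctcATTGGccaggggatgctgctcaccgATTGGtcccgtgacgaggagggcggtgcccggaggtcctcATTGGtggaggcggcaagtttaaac
DEPDC1: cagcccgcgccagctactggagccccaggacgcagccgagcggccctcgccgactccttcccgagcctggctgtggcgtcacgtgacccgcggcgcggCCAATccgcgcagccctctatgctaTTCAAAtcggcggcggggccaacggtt
PLK1: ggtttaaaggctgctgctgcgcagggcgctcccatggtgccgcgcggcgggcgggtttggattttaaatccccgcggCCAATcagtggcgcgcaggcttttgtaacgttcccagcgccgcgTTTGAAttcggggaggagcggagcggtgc
CENPE held neither in its window. CCAAT was in 64.2% of the 67 windows of the list and in 23.5% of all windows, and TTTGAA in 41.8% and 7.33%. The motifs do not overlap each other.

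Other lists had 0 called probes, and their unadjusted counts are given as descriptions, beside 6.48% lower and 6.06% higher over all probes. Apoptosis regulators had 17 of 71 probes lower (23.9%) and 2 higher, with FAS and MCL1 shared with lists above. Ribosome assembly had 8 of 27 probes higher (29.6%) and 0 lower, and translation factors 6 of 55 higher (10.9%) and 0 lower. Small ribosomal subunit proteins had 1 of 31 probes higher and 0 lower, and large ones 1 of 28 and 0. Reference genes had 5 of 30 higher (16.7%), ACTB among them, and their median was 0.12. That median was not even over the arrays. It was 0.12, 0.01 and 0.44 with p65 siRNA at 1, 3 and 6 h, and -0.05, -0.05 and 0.34 with RPS3 siRNA. Genes responsive to interferon had 8 of 61 higher (13.1%) and 5 lower (8.20%). Chromatin genes had 11 of 90 lower and 4 higher, and the unfolded protein response 5 of 43 lower and 3 higher. T-cell receptor signalling had 1 of 87 lower and 7 higher, p53 targets 6 of 34 lower and 3 higher, heat shock proteins 3 of 15 lower and 1 higher, and lipid synthesis 2 of 29 each way. Glycolysis had 1 of 57 lower and 5 higher, oxidative phosphorylation 0 of 21 and 5, the proteasome 0 of 12 and 2, splicing factors 1 of 29 and 2, and the RNA interference machinery 1 of 12 each way.

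**Figure D4:**
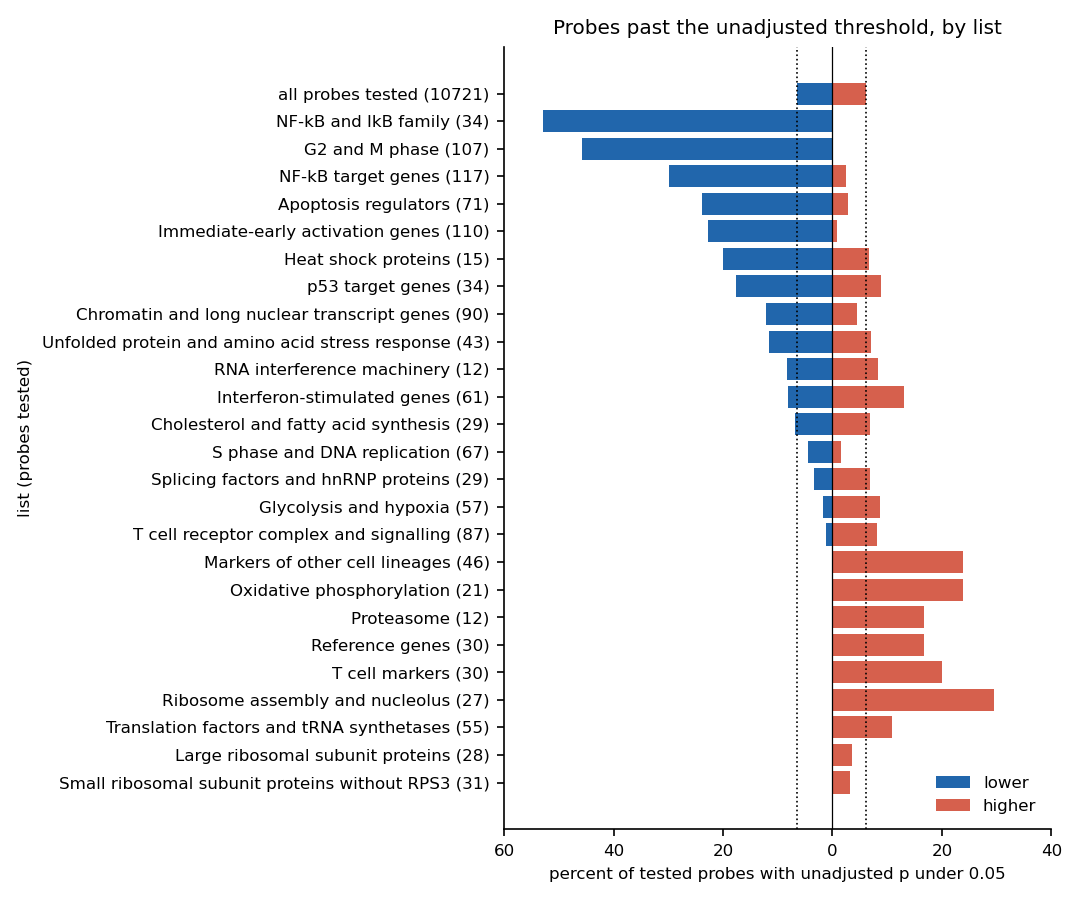
For each gene list, bars to the left and right give the percentage of its tested probes that were lower or higher at an unadjusted p under 0.05, with all probes tested (6.48% and 6.06%) at the top and as dotted lines. The NF-kB family (52.9% lower) and G2 and M phase (45.8% lower) reach farthest to the left, and ribosome assembly (29.6% higher) farthest to the right.

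**Figure D5:**
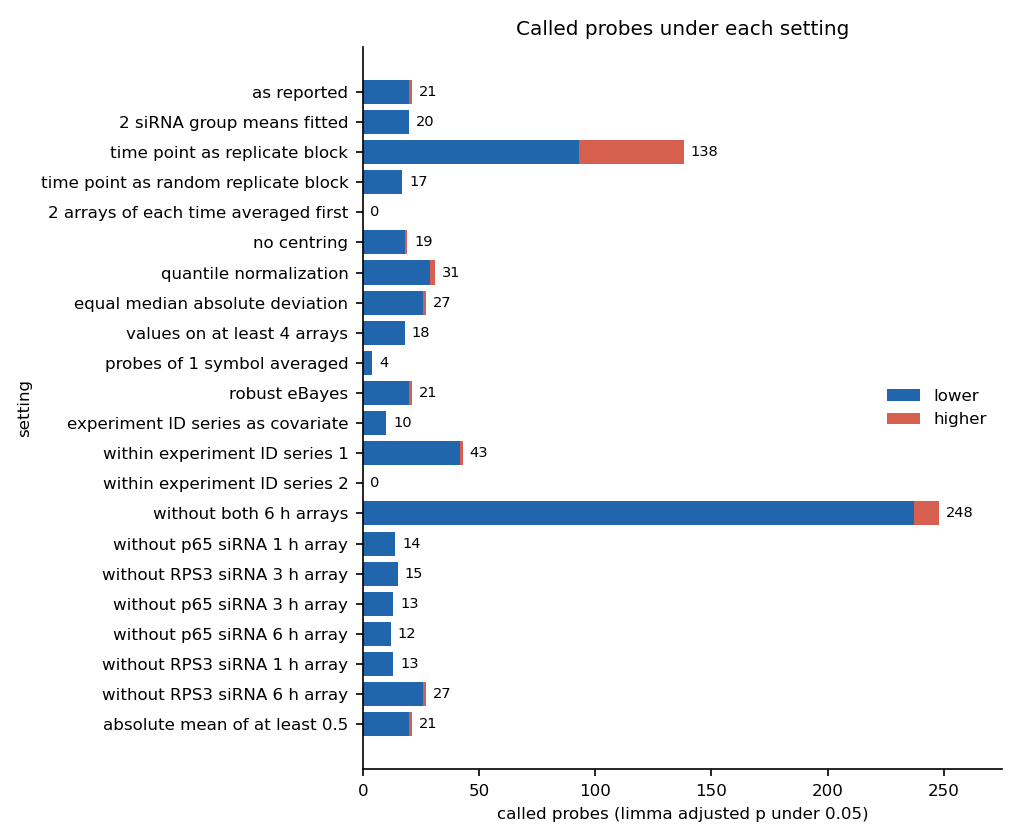
Bars give the number of called probes, lower and higher, under each way of fitting or selecting the data. The count is 21 as reported, 248 without both 6 h arrays, and 0 where the 2 arrays of each time were averaged first or only the second ID series was used.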

How the data were processed

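Deposited values were log2 ratios per probe, of 2 channels, with base and direction not stated. Base 2 was assumed, and a natural log is possible. Per the labels' protocols, total RNA was extracted with Trizol and reverse transcribed with oligo-dT primers. Image analysis, background correction, normalization and the rule behind blanks are not given in the sources used here. No channel intensity was used here, which leaves signal over background unknown, and precision is limited by having 6 arrays.

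Ratios were centred array by array on the median, and 10721 probes with 6 values were fitted as 1 group against 0 with limma 3.58.1 in R 4.3.3 (lmFit, eBayes; tested on simulated data). The spread of the control itself does not enter such a test. Of 15246 probes, 10169 had 1 gene symbol in the platform annotation, 4 several and 5073 none. Named genes were those with 2 or more called probes one way, filled to 20 from genes with 2 or more probes at an unadjusted p under 0.05, largest mean first, plus RELA, RPS3 and up to 4 called members of a list. Members and lists were chosen with earlier results of these data known. The promoter motifs and windows were chosen after the values were seen. Models, normalization, blanks, ID series, times and single arrays were varied.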

Additional observations from a re-analysis of the deposited data

Results flagged for a closer look

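CD83 on the RPS3 siRNA array at 1 h stood apart from the other 5 arrays, at -1.19 (log2, mean of its called probes). Its gap to the next array was 0.643 of the whole range in Dixon's test, past its critical value at the usual level. Of 23 items examined this was the single one beyond that value, and chance marks about 1 in 20. Without that array CD83 still had 2 or more called probes.

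The RPS3 probe lay on opposite sides of 0 in the siRNAs, above 0 on all 3 p65 siRNA arrays and below 0 on all 3 RPS3 siRNA arrays. The difference, RPS3 siRNA minus p65 siRNA, was -2.57 on the log2 scale, and it did not pass limma's test over all probes (adjusted p = 0.5545). With time as a replicate block it was called.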

How the results depend on the processing

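Against 21 called probes and 4 genes, 138 probes and 13 genes were called with time as a replicate block, 0 and 0 with the 2 arrays of each time averaged, 10 and 2 with ID series as a covariate, 43 and 3 within series 1, 0 and 0 within series 2, 248 and 22 without both 6 h arrays, and 4 features with probes of a symbol averaged. Leaving out single arrays gave 12 to 27 probes and 3 to 4 genes. The other settings gave 17 to 31 probes and 4 to 5 genes. Deviations of the 2 arrays of a time from their siRNA's mean correlated at 0.0789, 0.133 and 0.769 at 1, 3 and 6 h. Not every array correlated best with the other of its time. The p65 siRNA array at 1 h correlated at 0.577 with RPS3 siRNA at 3 h. The p65 siRNA array at 3 h correlated at 0.524 with RPS3 siRNA at 1 h. These 2 pairs, like the 6 h pair, each lay within 1 ID series. A shared control was not tested by these values, since deviations from a mean of 3 arrays sum to 0. With the replicate block, the difference between siRNAs was called for 2 probes against 0, the RPS3 probe and 1 unnamed probe. Called NF-kB target probes went from 13 to 23 without 6 h and 22 with the block. G2 and M probes went from 0 to 20 and 14 in the same 2 settings. With probes of a symbol averaged, where a feature is a gene, called NF-kB target genes went from 4 to 1. Called G2 and M genes stayed at 0. List counts without 6 h and with the block were added after seeing the data. Over all settings, 364 values of named genes kept direction and call, 17 passed only under the alternative, 19 no longer passed and 0 reversed. These values include the 16 genes that were not called, which kept their status by staying uncalled. All 19 that no longer passed belong to the 4 called genes. Of 20 settings, CD83 kept its call in 18, SGK1 in 17, TNFAIP3 in 15 and NFKBIA in 11. A kept call means 2 or more called probes, or the single averaged value where probes of a symbol were averaged. The cause of these changes was not tested.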

Other observations

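Trypsinogen 1 (PRSS1), listed as a pancreatic marker and lying within the T-cell receptor beta locus, was chosen after its values were seen. Of its 8 tested probes, 7 were higher at an unadjusted p under 0.05, and none was called. Its mean was 0.31 ± 0.24 (log2, SD over 6 arrays), above 0 on every array, from 0.04 to 0.72. RAG1, a recombinase gene of developing lymphocytes also chosen after its values were seen, averaged 0.43 ± 0.11 over 2 probes, from 0.26 to 0.54, and was not called either (lowest adjusted p = 0.129).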
